A study of Glycine max with 44 samples.

Results

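Lipoxygenases add oxygen to polyunsaturated fatty acids and so make the hydroperoxides from which plants derive oxylipins. Allene oxide synthase, a cytochrome P450 of the CYP74 family, turns such a hydroperoxide of linolenic acid into the allene oxide that leads to jasmonic acid, a hormone of wounding, defence and growth. Lipoxygenase products also feed other branches, and soybean has many lipoxygenases, among them abundant seed and vegetative storage forms, so the level of a lipoxygenase transcript is not a measure of jasmonate. The genes described here are the lipoxygenases LOX7, LOX9 and LOX10 and the allene oxide synthase gene CYP74A1. They were taken as all soybean probe sets whose single annotated symbol is one of these names, which gave 4 of the 6029 soybean genes with a probe set of their own and 11 of 37593 soybean probe sets: 4 for LOX7, 5 for LOX9, 1 for LOX10 and 1 for CYP74A1. All 11 lay above the background of 4.41 in all 44 arrays, and all 11 entered the fit.

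The RNA came from the terminal centimetre of the tap root of plants in hydroponics. PI 416937, labelled Al-tolerant, and Young, labelled Al-sensitive, were given 10 µM Al or left untreated at 0 µM Al and sampled at 2, 12, 48 and 72 h. Each of the 4 groups at 2 h (Al-treated PI 416937, untreated PI 416937, Al-treated Young and untreated Young) held 2 arrays, and each of those groups at 12, 48 and 72 h held 3. Every Al-treated group has untreated arrays of its genotype and time. Time, plant age and hour of day cannot be told apart, and nothing in the labels says that replicates were separate cultures, so errors and p-values measure the spread between these arrays, whose number limits the precision.

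Levels are log2(intensity + 16) of the deposited intensities, and differences are on that scale, with the standard error of a limma fit over all arrays after ±. A probe set is called when its Benjamini-Hochberg adjusted p in that fit is under 0.05. Because these 4 genes were selected on their measured Al, genotype and time differences in these same arrays, their values are given as a description, with no p-value, and nothing is read from the share of them that is called. Members are counted below by probe set, 11 in all, with 4 of LOX7 and 5 of LOX9. Probe sets of the same gene are not independent, so such counts and medians are not counts of separate genes. In whole root tips, fewer cells of a type and less RNA per cell cannot be told apart.

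By RefSeq positions (assembly Glycine_max_v4.0, from Williams 82), LOX7 lies on chromosome 13 at 43164302 to 43169766, beside LOX2, LOX1.1 and LOXB1, which occupy 43128326 to 43146920. LOX9 lies on chromosome 7 at 2766642 to 2772802, LOX10 on chromosome 8 at 15316688 to 15321326, and CYP74A1 on chromosome 7 at 21435003 to 21439985. Lipoxygenases of one cluster can share target sequence, and probe sets ending in _s_at or _x_at may take up transcripts of more than 1 gene, so the LOX7 and LOX9 values are uncertain as to gene. A further probe set annotated to VLXB, LOX7 and LOXB1 together was not used. The 4 LOX7 probe sets are written here by the ends of their identifiers, 1.S1_at, 1.S1_x_at, 1.S1_a_at and 3.S1_x_at. Of the 5 of LOX9, 3 are written as _at, _s_at and _x_at, and those whose identifiers start with GmaAffx as GmaAffx _at and GmaAffx _s_at.

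The marker lists gave the following. Seed storage genes had a list mean of 4.38 to 4.42 over the 44 arrays, near background. Of their 13 probe sets, 2 were above background in all arrays and 6 in none. Genes of root elongation and cell division had list means of 8.16 to 9.81, and nodule genes 5.56 to 6.55. The list of leaf and light-exposed tissue, 12 probe sets of 3 genes of which 10 were above background in all arrays, ranged from 6.05 to 8.44.

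LOX7 and LOX9 were high in root tips at 2 and 12 h and low at 72 h, in both genotypes and with or without Al. The 72 h mean minus the 2 h mean lay between -6.62 and -2.67 for their probe sets, apart from the dim GmaAffx _at probe set of LOX9, where it lay between -2.21 and -1.32. LOX10 was also highest at 2 h, whereas CYP74A1 stayed within a narrow range. Over the 16 group means, time accounted for 75.9 to 89.6% of the variation of the 9 LOX7 and LOX9 probe sets and for 70.1% of that of LOX10, but for 12.7% of that of CYP74A1, where treatment accounted for 38.9% and the combination of treatment and time for 35.3%. RNA quality and tissue markers moved with time as well. A control ratio is here the level of the 3′ probe set minus that of the 5′ probe set. As levels are log2(intensity + 16), it is understated where a probe set is dim. For glutathione transferase it was 0.33 to 0.85 at 2 h and 2.02 to 2.59 at 72 h in Al-treated PI 416937. In untreated PI 416937 it was 0.58 to 1.39 and 1.89 to 2.18. In Young it was 0.26 to 0.91 and 1.07 to 1.62 with Al, and 0.17 to 0.53 and 1.88 to 2.01 untreated. The P450 control ratio was also higher at 72 h than at 2 h without overlap in all 4 series. The actin ratio was so in Al-treated PI 416937 and untreated Young only, and overlapped in untreated PI 416937 and Al-treated Young. The mean of the root elongation and cell division list was 9.67 to 9.74 at 2 h and 8.74 to 8.95 at 72 h in Al-treated PI 416937, and it was lower at 72 h without overlap in the other 3 series too. The part of these measures in the time differences was not tested. The values follow gene by gene, each for the probe set with the largest range of group means.

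**Figure D1:**
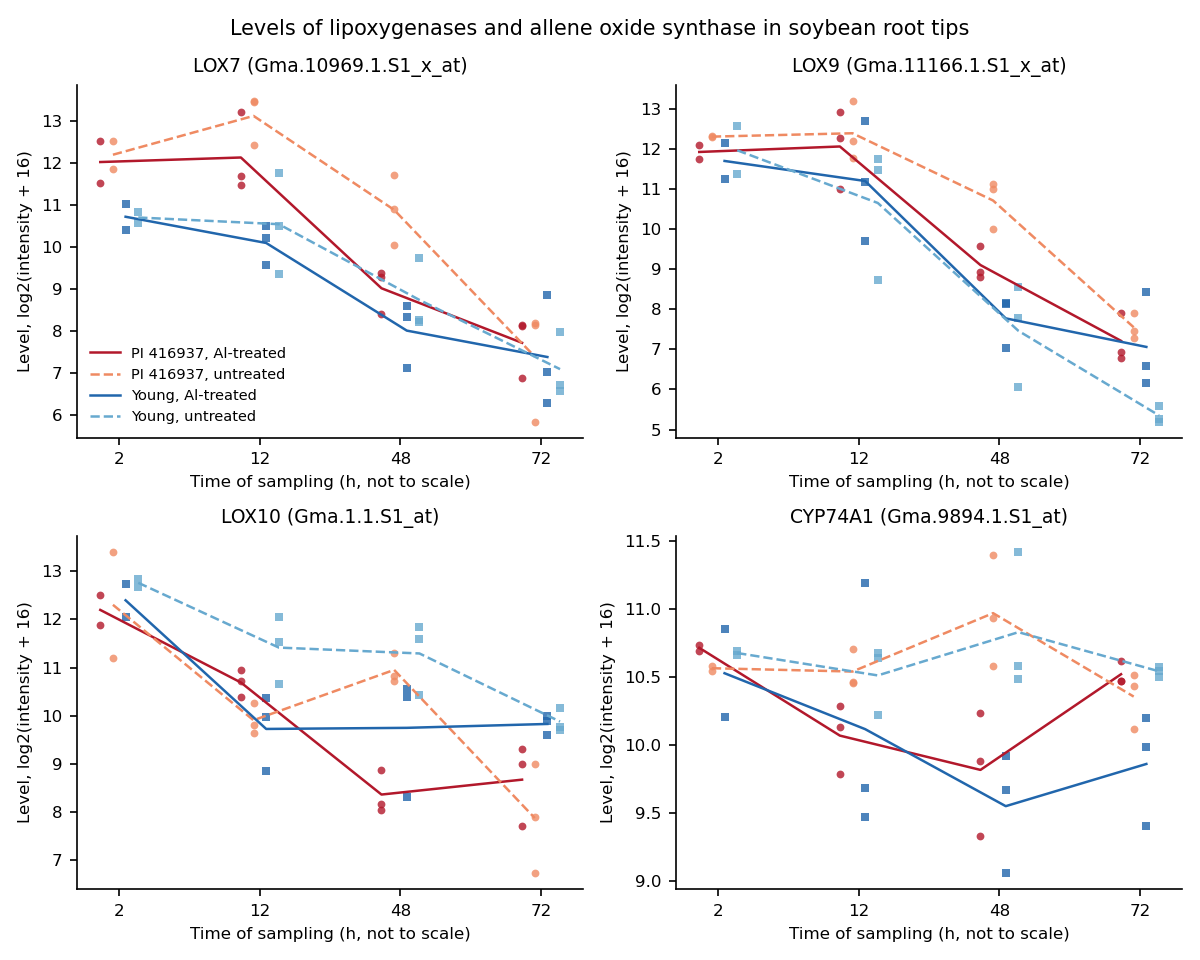
Levels, log2(intensity + 16), of LOX7, LOX9, LOX10 and CYP74A1 (1 probe set each) against time of sampling, with each array as a point and the group mean as a line, for Al-treated and untreated PI 416937 and Al-treated and untreated Young. LOX7 and LOX9 are lower at 48 and 72 h than at 12 h in all 4 series, and the Al-treated lines of CYP74A1 reach their lowest means, 9.82 in PI 416937 and 9.55 in Young, at 48 h.

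LOX9 had the widest range, 7.05 log2 units of group means for its _x_at probe set. In Al-treated PI 416937 it measured 12.11 and 11.76 at 2 h, 12.28, 12.92 and 11.00 at 12 h, 8.94, 9.58 and 8.80 at 48 h, and 6.93, 6.79 and 7.92 at 72 h. In untreated PI 416937 it measured 12.32 and 12.31 at 2 h, 12.21, 13.22 and 11.77 at 12 h, 11.14, 10.00 and 11.01 at 48 h, and 7.92, 7.45 and 7.29 at 72 h. Thus at 48 h every untreated PI 416937 array was still at 10.00 or above while every Al-treated one was below that. In Al-treated Young it measured 11.27 and 12.15 at 2 h, 12.72, 11.19 and 9.71 at 12 h, 8.17, 8.12 and 7.03 at 48 h, and 6.59, 8.44 and 6.17 at 72 h. In untreated Young it measured 12.57 and 11.38 at 2 h, 11.49, 11.74 and 8.74 at 12 h, 8.55, 7.78 and 6.06 at 48 h, and 5.59, 5.27 and 5.20 at 72 h. The lowest of the 16 groups was untreated Young at 72 h, whose 3 arrays did not overlap the next group, and the 72 h mean there minus the 2 h mean was -6.62. Over the same span the difference was -4.72 in Al-treated PI 416937, -4.76 in untreated PI 416937 and -4.64 in Al-treated Young.

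LOX7 had 2 pairs of probe sets. 1.S1_x_at measured 12.51 and 11.52 at 2 h, 11.47, 13.21 and 11.69 at 12 h, 8.39, 9.27 and 9.38 at 48 h, and 8.12, 6.88 and 8.14 at 72 h in Al-treated PI 416937. It measured 12.53 and 11.86, then 12.43, 13.48 and 13.44, then 10.89, 10.04 and 11.70, and then 5.84, 8.13 and 8.18 in untreated PI 416937 at these times. In Al-treated Young it measured 11.03 and 10.40, then 10.49, 9.57 and 10.21, then 8.32, 7.11 and 8.58, and then 7.01, 8.84 and 6.27, and in untreated Young 10.57 and 10.83, then 11.75, 9.36 and 10.50, then 9.74, 8.25 and 8.21, and then 7.98, 6.71 and 6.57. The 4 groups of PI 416937 at 2 and 12 h held the top 4 places of the 16, and the 4 groups of 72 h the last 4. Of the 15 steps between neighbours in that order, 14 had overlapping arrays, so the order is not resolved step by step. The 72 h mean minus the 2 h mean lay between -4.81 and -3.34 in the 4 series.

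LOX10, represented by a single probe set, differed from these in its timing. In Al-treated PI 416937 it measured 12.51 and 11.88 at 2 h, 10.72, 10.39 and 10.95 at 12 h, 8.05, 8.16 and 8.87 at 48 h, and 7.70, 9.0 and 9.30 at 72 h. In untreated PI 416937 it measured 11.21 and 13.40 at 2 h, 9.63, 9.81 and 10.27 at 12 h, 10.83, 10.72 and 11.31 at 48 h, and 6.73, 7.89 and 8.99 at 72 h. The 48 h arrays without Al lay above all those of 12 h, as in 9.67% of all tested probe sets, and that difference was not called. They also lay above all those of 72 h, as in 15.5% of all tested probe sets. In Al-treated Young it measured 12.74 and 12.06 at 2 h, 9.96, 8.85 and 10.36 at 12 h, 10.54, 8.31 and 10.39 at 48 h, and 9.89, 10.00 and 9.59 at 72 h. In untreated Young it measured 12.85 and 12.68 at 2 h, 12.05, 10.66 and 11.54 at 12 h, 11.85, 10.43 and 11.60 at 48 h, and 10.16, 9.70 and 9.77 at 72 h. The 4 groups of 2 h were the 4 highest, and 14 of the 15 steps between neighbours overlapped.

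CYP74A1, the allene oxide synthase gene among the 4, also has a single probe set. Its group means covered 1.42 log2 units between its highest, 10.97 ± 0.41 (SD, n = 3) in untreated PI 416937 at 48 h, and its lowest, 9.55 ± 0.44 (SD, n = 3) in Al-treated Young at 48 h. The 5 lowest means were the Al-treated groups of both genotypes at 12 and 48 h and that of Young at 72 h. Of the 15 steps between neighbours, 13 overlapped. At 2 h it measured 10.69 and 10.74 in Al-treated PI 416937, against 10.55 and 10.58 untreated, and 10.20 and 10.85 in Al-treated Young, against 10.66 and 10.69 untreated. At 12 h it measured 10.13, 10.28 and 9.79 in Al-treated PI 416937, against 10.70, 10.46 and 10.46 untreated, and 11.19, 9.69 and 9.47 in Al-treated Young, against 10.67, 10.22 and 10.64 untreated. The Young arrays overlapped at both times, and the PI 416937 arrays were apart at both, higher with Al at 2 h, as were 15.4% of all tested probe sets, and lower with Al at 12 h.

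Consecutive times were then compared within each series; adjacent comparisons share the arrays of the middle time. Between 2 and 12 h, 0 of the 9 LOX7 and LOX9 probe sets were called in any series, and the 1 member called was LOX10 in Al-treated Young (-2.68 ± 0.64), where 1.99% of all tested probe sets were called lower, beside 3.15% in Al-treated PI 416937, 0.822% in untreated PI 416937 and 1.94% in untreated Young. The LOX10 difference was -1.51 ± 0.64 in Al-treated PI 416937, -2.40 ± 0.64 in untreated PI 416937 and -1.35 ± 0.64 in untreated Young. Between 12 and 48 h, 8 of 11 members were called lower in Al-treated PI 416937 (0.655% of all tested), 0 in untreated PI 416937 (0.0368%), 5 in Al-treated Young (0.765%) and 4 in untreated Young (0.377%). These counts rest on single arrays: the 8 fell to 0 without the second Al-treated array of 12 h or the first of 48 h, the 5 fell to 1 without the second Al-treated array of 48 h, and the 4 fell to 0 without untreated array 1 of 12 h or array 3 of 48 h. The LOX9 probe set GmaAffx _s_at differed by -3.24 ± 0.69, -1.33 ± 0.69, -3.61 ± 0.69 and -3.77 ± 0.69 in these 4 series. Between 48 and 72 h, 3 members were called lower in Al-treated PI 416937 (6.03%), 10 in untreated PI 416937 (8.89%), 0 in Al-treated Young (0.00283%) and 0 in untreated Young (0%). The 3 fell to 1 without the second Al-treated array of 48 h. Fitted on the 2 compared groups alone, with their own spread, these counts of 8, 5, 4 and 10 and the 1 of 12 h became 0. In untreated PI 416937 that step was -3.48 ± 0.69 for the same LOX9 probe set, -3.51 ± 0.68 for LOX7 1.S1_at and -3.08 ± 0.57 for LOX10. In untreated PI 416937 the step between 48 and 72 h was larger than that between 12 and 48 h for all 9 LOX7 and LOX9 probe sets. In Al-treated Young the earlier step was the larger one for all 9. In the other 2 series this differed between probe sets: for LOX7 3.S1_x_at the steps were -1.72 and -2.11 in Al-treated PI 416937 and -2.00 and -2.18 in untreated Young, whereas for LOX9 _x_at they were -2.96 and -1.89, and -3.19 and -2.11. Whether a step differs between series was not tested for these genes.

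From 2 to 72 h, 9 of 11 members were lower by 3 log2 units or more in Al-treated PI 416937, 9 in untreated PI 416937, 6 in Al-treated Young and 8 in untreated Young. Among all 35289 tested probe sets, 1.33%, 0.598%, 0.281% and 1.28% were lower by that much in these series. The member median was -4.03 in Al-treated PI 416937, -4.27 in untreated PI 416937, -3.34 in Al-treated Young and -4.49 in untreated Young, beside medians between 0.00 and 0.01 for all tested probe sets.

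The series asks how Al alters root transcripts in a tolerant and a sensitive genotype, and for these 4 genes the differences between Al-treated and untreated root tips were small at 2 h and largest at 48 h in PI 416937. At 2 h, 0 of 11 members were called in either genotype (1.01% of all tested in PI 416937 and 0.105% in Young), with differences between -0.52 and 0.55. At 12 h again 0 were called (0.00283% and 0.0822%), but LOX10 differed in opposite ways. In PI 416937 its Al-treated arrays (10.72, 10.39 and 10.95) lay above the untreated arrays (9.63, 9.81 and 10.27), a difference of 0.78 ± 0.57. In Young its Al-treated arrays (9.96, 8.85 and 10.36) lay below the untreated arrays (12.05, 10.66 and 11.54), a difference of -1.69 ± 0.57. The response of PI 416937 minus that of Young was 2.48 ± 0.81. The share of all probe sets whose groups did not overlap at 12 h was 3.58% higher in PI 416937 and 2.63% lower in Young. CYP74A1 was lower with Al in PI 416937 at 12 h without overlap, as were 5.3% of all tested probe sets, by the smaller difference of -0.47 ± 0.32.

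**Figure D2:**
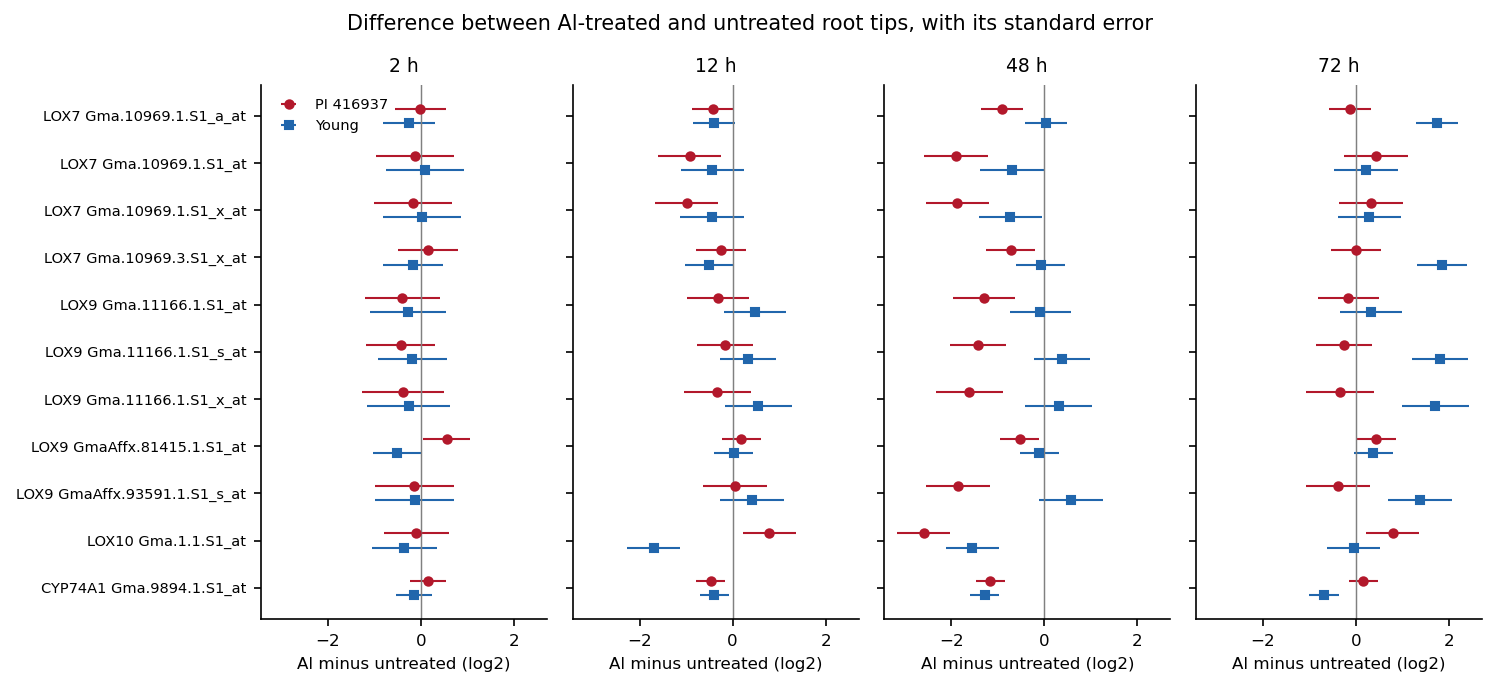
Al-treated minus untreated root tips on the log2 scale for the 11 probe sets at 2, 12, 48 and 72 h, with PI 416937 above Young in each row and bars of 1 standard error. All 11 points of PI 416937 are below 0 at 48 h, between -2.59 and -0.53, while the Young points of LOX7 and LOX9 are nearer 0 at 48 h and include values above 1.3 at 72 h.

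At 48 h all 11 differences were below 0 in PI 416937, with a median of -1.41, beside -0.02 for all tested probe sets. LOX10 measured 8.05, 8.16 and 8.87 with Al, against 10.83, 10.72 and 11.31 without, a difference of -2.59 ± 0.57. CYP74A1 measured 9.88, 9.33 and 10.24 with Al, against 10.93, 11.40 and 10.58 without, a difference of -1.16 ± 0.32. These were the 2 members called lower, where 0.652% of all tested probe sets were called lower; leaving out the first or second array of either group left 1 called. Al-treated and untreated arrays of PI 416937 did not overlap for 8 of the 11 members, all of them lower with Al, beside 15% of all tested probe sets. LOX7 differed by -1.90 ± 0.68 (1.S1_at) and -0.90 ± 0.45 (1.S1_a_at), and the LOX9 probe sets by -1.86 ± 0.69 to -0.53 ± 0.42. For LOX7 1.S1_x_at the mean was 9.01 with Al, against 10.88 without, and for 3.S1_x_at 11.26, against 11.98. The mean of the list of root elongation and cell division genes was lower with Al in these same arrays, at 8.79 to 9.41, against 9.63 to 9.67 without Al.

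In Young at 48 h the 11 members had a median difference of -0.08. CYP74A1 measured 9.67, 9.06 and 9.92 in Al-treated arrays, against 10.58, 11.42 and 10.49 in untreated ones, a difference of -1.28 ± 0.32. It was the 1 member called (0.312% of all tested were called lower), and it was not called without the second array of either group. CYP74A1 was thus lower with Al in both genotypes, and its response in PI 416937 minus that in Young was 0.13 ± 0.45. AOS1 (3 probe sets) and AOS2 (1), other allene oxide synthase genes named after their values were seen, were not called at 48 h. AOS1 differed by -0.21 to 0.01 in PI 416937 and by -0.03 to 0.34 in Young, and AOS2 by 0.38 and 0.42. LOX10 differed by -1.55 ± 0.57 in Young, but with 10.54, 8.31 and 10.39 in Al-treated arrays, against 11.85, 10.43 and 11.60 in untreated ones, the groups overlapped, and the difference was -0.83 without the second Al-treated array. LOX9 _x_at differed by 0.31 ± 0.72 and LOX7 1.S1_x_at by -0.73 ± 0.68.

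At 72 h no member was called in PI 416937 (0.0397% of all tested), where the differences lay between -0.39 and 0.80. CYP74A1 measured 10.47, 10.47 and 10.62 with Al there, against 10.12, 10.44 and 10.51 without, and the groups overlapped. In Young at 72 h the lipoxygenase signal was higher with Al for part of the probe sets. LOX7 1.S1_a_at measured 8.77, 9.93 and 9.32 with Al, against 7.73, 7.55 and 7.47 without, a difference of 1.76 ± 0.45, and 3.S1_x_at measured 9.64, 10.58 and 10.30, against 8.37, 8.28 and 8.32, a difference of 1.85 ± 0.53. These were the 2 members called higher (3% of all tested), and 0 were called without any 1 of the 3 untreated arrays or the second Al-treated one. The other LOX7 pair, 1.S1_at and 1.S1_x_at, differed by 0.22 ± 0.68 and 0.29 ± 0.68, and both signs turned, to -0.52 and -0.44, without the second Al-treated array; that of 1.S1_at also turned, to -0.05, without the second untreated one. LOX9 _s_at measured 6.95, 8.69 and 5.96 with Al, against 5.44, 5.39 and 5.34 without, a difference of 1.81 ± 0.60 with no overlap. Groups did not overlap for 4 members that were higher and 1 that was lower, CYP74A1, beside 16.6% and 28.2% of all tested probe sets. CYP74A1 measured 10.19, 9.40 and 9.98 with Al, against 10.50, 10.55 and 10.58 without, a difference of -0.68 ± 0.32.

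A measure of RNA quality moved with these comparisons. The glutathione transferase control ratio, 3′ level minus 5′ level, was 1.40 to 1.69 in Al-treated PI 416937 at 48 h, against 1.97 to 2.39 untreated. It was 0.69 to 1.49 in Al-treated Young at 48 h, against 1.62 to 2.23 untreated, and 1.07 to 1.62 in Al-treated Young at 72 h, against 1.88 to 2.01 untreated. The P450 control ratio was also lower with Al without overlap in these 3 comparisons; the actin ratio was so in Young at 72 h only and overlapped in the other 2. The leaf and light list overlapped in PI 416937 at 48 h, at 6.58 to 8.27 with Al against 6.63 to 8.25 without. It was lower with Al in Young, at 6.23 to 6.75 against 6.88 to 7.88 at 48 h and at 6.4 to 6.78 against 7.05 to 7.40 at 72 h. The part of these measures in the results was not tested.

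The difference between Al responses was not called for any member at any of the 4 times, beside 0.357% of all tested probe sets at 2 h, 0% at 12 h, 0.0113% at 48 h and 1.71% at 72 h. The LOX9 values at 48 h were -2.43 ± 0.97 to -0.42 ± 0.59. At 72 h the interaction for LOX7 1.S1_a_at was -1.89 ± 0.64. As the mean of the 4 times, Al-treated minus untreated was -0.63 ± 0.17 for CYP74A1 in Young, the 1 member called there (2.21% called lower), and -0.33 ± 0.17 in PI 416937, where 0 members were called (0.147%).

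Within groups, the 4 LOX7 probe sets fell into 2 pairs. After subtracting group means, 1.S1_at and 1.S1_x_at correlated at 0.99 over the 44 arrays, and 1.S1_a_at and 3.S1_x_at at 0.93. Between the pairs, the correlation was 0.00 to 0.32, although over the 16 group means all 4 correlated at 0.93 or more. These points share arrays and normalisation. The first untreated PI 416937 array at 72 h showed the split most plainly. There 1.S1_at and 1.S1_x_at read 5.70 and 5.84, against 7.83 to 8.18 in the other 2 arrays of that group, while the other pair read 9.85 and 10.86, against 8.15 to 8.37. The LOX9 probe sets correlated within groups at 0.52 to 0.91.

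**Figure D3:**
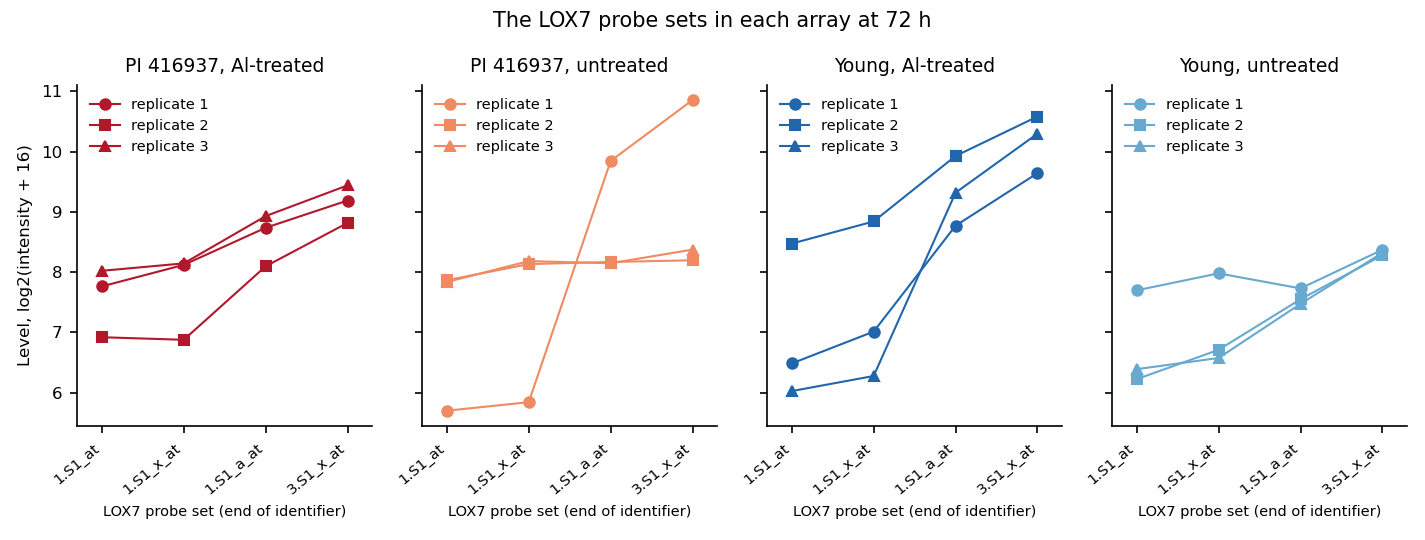
Level, log2(intensity + 16), of the 4 LOX7 probe sets in each array at 72 h, with a line for each array and a panel for each group; heights are not comparable between probe sets. The first untreated PI 416937 array is lowest for 1.S1_at (5.70) and highest for 3.S1_x_at (10.86).

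Averaged over the 4 times without Al, LOX7 and LOX9 were higher and LOX10 lower in PI 416937 than in Young. LOX7 3.S1_x_at was not higher at 2 h (12.95, against 13.02 in Young). Nor was LOX9 GmaAffx _at at 2 h (6.46, against 6.93) or at 72 h (4.70, against 4.72). The other LOX7 and LOX9 probe sets had higher means in PI 416937 at all 4 times. As the mean of the 4 times, PI 416937 minus Young was 1.88 ± 0.38 for LOX9 _x_at, 1.63 ± 0.36 for LOX7 1.S1_x_at, -1.08 ± 0.30 for LOX10 and -0.03 ± 0.17 for CYP74A1. In that mean 7 of 11 members were called higher (2.67% of all tested) and 1, LOX10, was called lower (2.17%). At 48 h 4 of 11 were called higher (0.385%), and 9 of 11 did not overlap and were higher in PI 416937, beside 7.22% of all tested. GmaAffx _s_at of LOX9 then measured 11.14, 9.42 and 11.15 in untreated PI 416937, against 7.55, 6.55 and 5.31 in untreated Young, a difference of 4.10 ± 0.69. Leaving out PI 416937 array 1 or 3 or Young array 3 left 1 called, and a fit of the 2 compared groups alone left 0. For LOX9 all 5 probe sets differed most at 48 h, but LOX7 1.S1_at and 1.S1_x_at differed more at 12 h (2.62 and 2.58) than at 48 h (2.46 and 2.14), and LOX10 differed by -0.34 at 48 h. No member was called at 2 h (0.918%) or 12 h (0.805%), and 1, LOX9 _s_at, was called at 72 h (0.646% higher; 2.30 ± 0.60). LOX10 at 72 h measured 6.73, 7.89 and 8.99 in PI 416937, against 10.16, 9.70 and 9.77 in Young, a difference of -2.01 ± 0.57 without overlap, as in 11% of all tested probe sets.

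**Figure D4:**
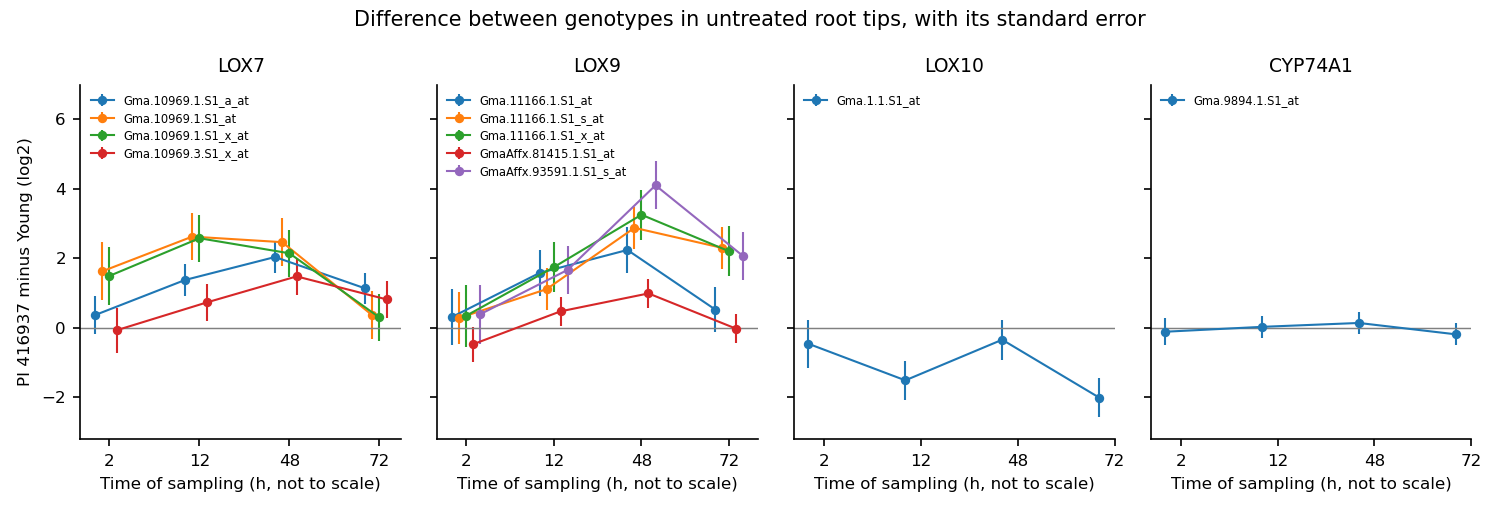
PI 416937 minus Young in untreated root tips on the log2 scale at 2, 12, 48 and 72 h, with a line for each probe set of LOX7, LOX9, LOX10 and CYP74A1 and bars of 1 standard error. The LOX9 lines peak at 48 h, at 0.99 to 4.10, the LOX10 line is below 0 at all 4 times and the CYP74A1 line stays between -0.19 and 0.14.

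Among Al-treated root tips 0 members were called at 2 h (1.86%), 12 h (0.924%), 48 h (0.89%) or 72 h (11.4%). At 48 h, 7 of 11 were higher in PI 416937 without overlap, beside 4.6% of all tested, with a median difference of 1.02. At 72 h LOX10 was lower in PI 416937 (7.70, 9.0 and 9.30, against 9.89, 10.00 and 9.59 in Young; -1.16 ± 0.57).

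Other genes of the pathway were tested in the same fit: 63 tested probe sets of other lipoxygenases, lipases and desaturases, the branches after lipoxygenase, jasmonate conjugation and methylation, and jasmonate perception and response. In PI 416937, 1 of 63 rose with Al at 48 h (3.39% of all tested) and 0 at the other times. In Young, 2 rose at 48 h (2.46%) and 3 at 72 h (3%), 0 changed at 2 or 12 h, and 0 of 63 fell at any single time in either genotype. Of the other lipoxygenases, 0 of 14 passed the test with Al at any time. At 48 h in PI 416937 the differences were -1.82 ± 0.63 and -1.70 ± 0.60 for the VLXB probe sets (limma adjusted p = 0.107 and 0.115) and -1.69 ± 0.64 for VLXC (limma adjusted p = 0.145), sizes like those of LOX7 and LOX9 there, and VLXC differed by -1.39 ± 0.64 in Young (limma adjusted p = 0.323). These were named after their values were seen.

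AOC2 (LOC100800036), an allene oxide cyclase that acts directly after allene oxide synthase, measured 9.54, 10.76 and 9.65 in Al-treated Young at 72 h, against 7.94, 8.19 and 8.25 in untreated Young. It rose by 1.85 ± 0.51 (limma adjusted p = 0.0339) while CYP74A1 was lower in the same arrays; the call was lost without any 1 of the 3 untreated arrays or Al-treated array 2 or 3 (adjusted p = 0.0706 to 0.286). AOC2 was the 1 of 10 probe sets of the branches after lipoxygenase that changed. Uncalled in Young at 72 h were AOS2 (0.95), AOS1 (-0.002 to 0.15), AOC6 (1.14), AOC3 (0.22 to 0.30) and AOC4 (-0.31). The contrast with CYP74A1 thus depends on the gene taken for each step.

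JAZ1 (LOC100778559), a gene of the family of repressors of jasmonate signalling, measured 9.96, 10.88 and 10.02 in Al-treated Young at 72 h, against 7.80, 8.00 and 7.69 in untreated Young. The probe set with these values rose by 2.46 ± 0.59 (limma adjusted p = 0.0153); the other 3 probe sets of this gene did not pass, with 1.28, 0.99 and -0.01. The call was lost without untreated array 1 or 3 or Al-treated array 2 (adjusted p = 0.055, 0.0675 and 0.137). At 48 h the same probe set was higher with Al by 1.53 in PI 416937 and by 1.47 in Young, and was not called. Its arrays did not overlap in either genotype then, as in 10.2% and 8.4% of all tested probe sets.

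VSPA, a vegetative storage protein gene used as a marker of jasmonate response in soybean leaves, has 6 tested probe sets, of which 1 passed the test, in both genotypes at 48 h; the differences of the 6 ran from -0.45 to 1.01 in PI 416937. The 1 that passed was near background in untreated arrays. It measured 5.07, 6.26 and 4.99 in Al-treated PI 416937, against 4.43, 4.43 and 4.42 in untreated PI 416937 (1.01 ± 0.25, limma adjusted p = 0.0175), and 5.31, 5.25 and 5.74 in Al-treated Young, against 4.44 in each untreated array (1.0 ± 0.25, limma adjusted p = 0.0241). The rise of that probe set in PI 416937 was lost without Al-treated array 2 (adjusted p = 0.213), without untreated array 3 (adjusted p = 0.0668) and in a fit of the compared groups alone (adjusted p = 0.285). That in Young was lost without any 1 of the untreated arrays or Al-treated array 2 or 3 (adjusted p = 0.0552 to 0.107).

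SABATH2, a methyltransferase of the family that includes jasmonate and salicylate methyltransferases, measured 10.54, 10.65 and 8.41 in Al-treated Young at 48 h, against 4.55, 4.52 and 4.55 in untreated Young. At 72 h it measured 8.30, 10.82 and 8.35, against 4.52, 4.52 and 4.44. It rose by 5.33 ± 0.51 at 48 h (limma adjusted p = 6.28e-07) and by 4.66 ± 0.51 at 72 h (limma adjusted p = 2.23e-06) in Young, while the 22 PI 416937 arrays lay between 4.43 and 5.14. In Young at 2 h it measured 5.44 and 4.52 with Al, against 6.92 and 4.52 untreated. At 12 h it measured 5.88, 6.26 and 5.31 with Al, against 4.48, 4.54 and 4.49 untreated. It was not called in Young at these earlier times.

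**Figure D5:**
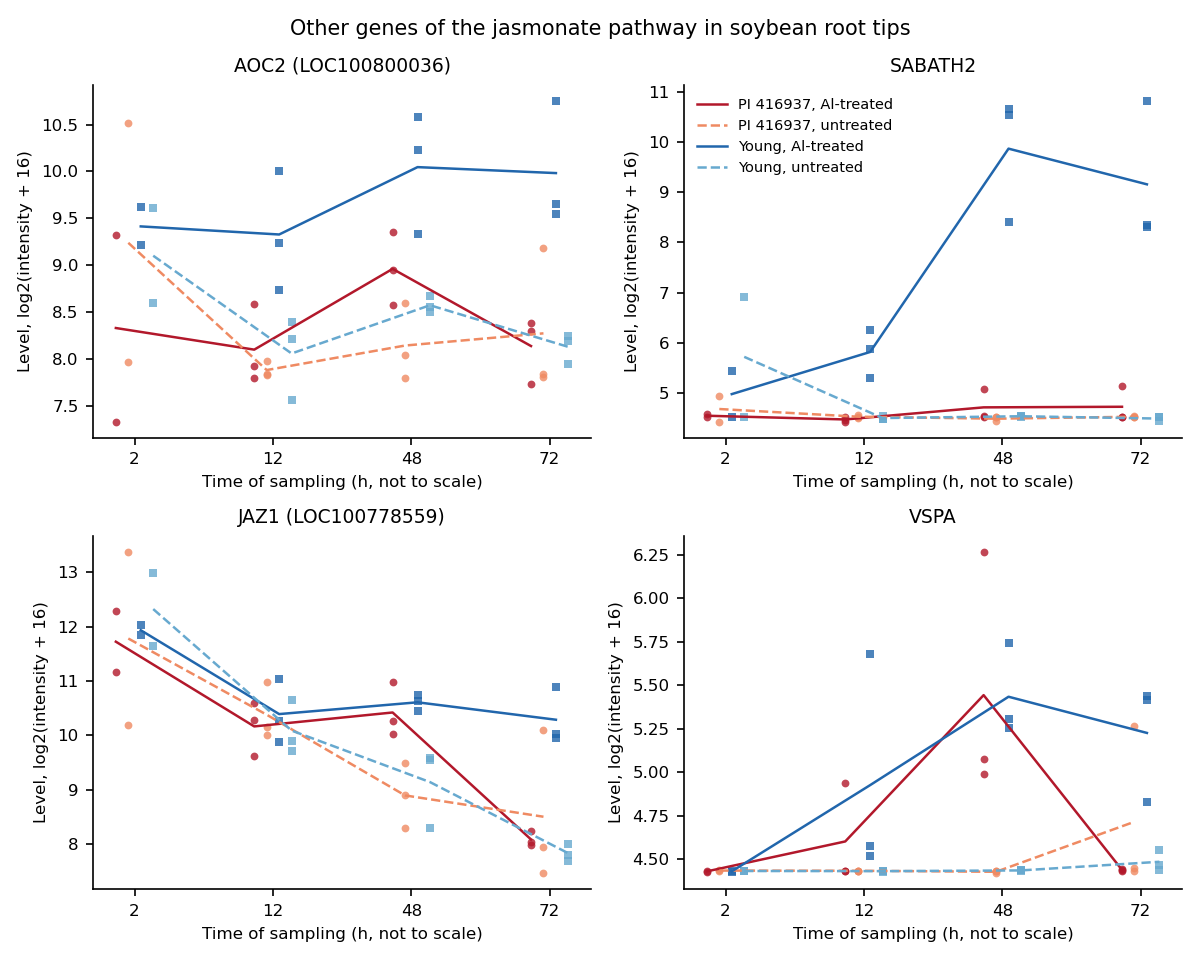
Levels, log2(intensity + 16), of 1 probe set each of AOC2, SABATH2, JAZ1 and VSPA, the one that passed the test, against time of sampling, with each array as a point and the group mean as a line. Al-treated Young stands apart for SABATH2 at 48 and 72 h, with arrays at 8.30 to 10.82, and its 3 arrays at 72 h are the highest of that time for AOC2; for JAZ1 at 72 h 1 untreated PI 416937 array, at 10.10, lies among them.

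Over time, the other lipoxygenases VLXC, VLXB and LOXB1, named here after their values were seen, fell between 48 and 72 h in untreated PI 416937, as the members were lower there: the difference was -2.78 ± 0.64 for VLXC (limma adjusted p = 0.00491), -2.40 ± 0.63 for a VLXB probe set (limma adjusted p = 0.0113) and -1.71 ± 0.55 for 1 of 4 LOXB1 probe sets (limma adjusted p = 0.0335). Of the 63 pathway probe sets, 11 fell in that step and 4 rose, beside 8.89% and 6.91% of all tested. The 4 that rose were the oleate desaturases FAD2-1A and FAD2-2, with 2 probe sets each.

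Of 1589 tested probe sets of other genes with a symbol, those most like each member over the 16 group means were ranked by Pearson's r, as a description; the points share arrays and times. For LOX7 they were FTRC (0.96), VLXC (0.96), MMT2 (0.94), LOXB1 (0.94) and GT4 (0.93). For LOX9 they were DHAR4 (0.95), SC-04 (0.94), FTRC (0.93), VLXC (0.92) and GSTU17 (0.91). For LOX10 they were STP (0.94), STP1 (0.93), NHX1 (0.90), ANN11 (0.89) and COR1 (0.89). For CYP74A1, whose range is narrow, the highest were SPCP1 (0.79), IQD45 (0.76), MIPS (0.75), BZIP77 (0.75) and CYP97C10 (0.74). The list of LOX9 thus shared FTRC and VLXC with that of LOX7, and those of LOX10 and CYP74A1 shared none with it.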

How the data were processed

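Root tip RNA was measured on 44 one-colour Affymetrix soybean arrays. The deposited values are summarised intensities on a linear scale, with array medians of 6.56 to 7.52 over all probe sets. These medians lie near background, so they do not show how comparable the arrays are for expressed genes. How the authors summarised and normalised the values is not given in the sources used here. The log2 values were computed here from the deposited intensities as log2(intensity + 16), which understates differences of dim genes. Background, 4.41, was the 95th percentile of mean levels of 23350 probe sets of other organisms. Soybean probe sets above it in at least 1 group mean, 35289 in all, entered one limma model (version 3.58.1, under R 4.3.3; 16 group means, eBayes with a trend, Benjamini-Hochberg within each of 35 comparisons). No array duplicated another (highest correlation 0.9982).

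The members and the gene lists were chosen with earlier results of these data known. All member probe sets are named; beyond them, up to 3 called genes of each pathway list in each comparison of Al with untreated, by smallest p, and the 5 genes most like each member. Gene names are from the platform annotation and RefSeq (Glycine_max_v4.0), where 8652 of 8677 probe sets with 1 gene matched. The list of beta-oxidation genes had 0 probe sets. In a test on simulated data for the fit over all 35289 probe sets, 45 of 100 changes of 1 log2 unit and 83 of 100 of 2 were called. Replicate numbers paired Al-treated with untreated arrays in Young at 12 h (residual correlations 0.24 to 0.29) and 48 h (0.38 to 0.48), and not elsewhere. The rule asked for at least 3 pairs, each with a correlation above 0.1. Young at 2 h has 2 pairs, so the rule could not pass it, though its residual correlation was 0.35. Alternatives were an offset of 1, quantile normalisation, no filter, no trend, a replicate block, the compared groups alone, and leaving out each array.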

Additional observations from a re-analysis of the deposited data

Results flagged for a closer look

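LOX10 was higher with Al in PI 416937 and lower with Al in Young at 12 h, without overlap of arrays in either genotype. The response of PI 416937 minus that of Young was 2.48 on the log2 scale. This difference was not called in the limma fit, where 0 of 35289 probe sets were called at 12 h and 1228 had an unadjusted p under 0.05; no p-value is given for LOX10, which was chosen with these groups in view.

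The Al response of SABATH2 differed between the genotypes by the test of the difference itself. The response of PI 416937 minus that of Young was -5.10 ± 0.72 at 48 h (limma adjusted p = 0.00257) and -4.47 ± 0.72 at 72 h (limma adjusted p = 0.00096).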

How the results depend on the processing

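Counts of members called rested on a spread pooled over all 16 groups and on few arrays. Fitted on the compared groups alone, members called became 1 and 0 for Al at 48 h in PI 416937 and in Young, 0 and 2 for PI 416937 minus Young without Al at 48 and 72 h, 0 for 12 minus 2 h in Al-treated Young, 0 for 48 minus 12 h in Al-treated PI 416937, Al-treated Young and untreated Young, and 1 and 0 for 72 minus 48 h in Al-treated and untreated PI 416937; called pathway genes became 0 for Al in PI 416937 at 48 h and 6 for Young at 72 h. The 1 member called between untreated genotypes at 72 h became 0 with quantile normalisation, no filter or no trend, and an offset of 1 gave 2 pathway genes for Al in PI 416937 at 48 h.

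Leaving out 1 array at a time, members called ranged from 1 to 2 (Al, PI 416937, 48 h), 0 to 1 (Al, Young, 48 h), 0 to 2 (Al, Young, 72 h), 0 to 2, 1 to 5 and 0 to 1 (genotypes without Al at 12, 48 and 72 h), 0 to 1 (12 minus 2 h, untreated PI 416937 and Al-treated Young), 0 to 6, 1 to 5 and 0 to 6 (48 minus 12 h, Al-treated PI 416937, Al-treated Young, untreated Young), and 1 to 4 and 0 to 3 (72 minus 48 h, Al-treated PI 416937, untreated Young). Pathway genes called for Al ranged from 0 to 4 and 0 to 2 (PI 416937 at 2 and 48 h) and 0 to 1, 1 to 2 and 1 to 4 (Young at 2, 48 and 72 h). The 4 at 2 h appeared without the first untreated PI 416937 array.

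With a replicate block, members called for Al in PI 416937 at 48 h became 1 and pathway genes 2, and AOC2 in Young at 72 h lost its call (adjusted p = 0.0518). Numbers did not pair the arrays there. In Young at 12 h, where they did, probe sets called for Al became 8 with the block, against 29 without, with 0 members among them. Otherwise the block changed no count of members or of pathway genes at a single time by over 1.5 times. The offset of 1 moved 4 differences, all of the dim LOX9 probe set GmaAffx _at. The causes were not tested.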

Other observations

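Some arrays stood apart from their group in several genes at once. The first untreated PI 416937 array at 72 h read 10.10 for JAZ1, against 7.94 and 7.47 in the other 2, 9.18 for AOC2, against 7.83 and 7.80, and 5.26 for the VSPA probe set that passed the test with Al, against 4.44 and 4.45. JAZ1 and AOC2 stand here for the probe set that passed it. The same array had the lowest LOX10 level of all 44, 6.73. Without it, LOX10 in untreated PI 416937 differed between 48 and 72 h by -2.51 and LOX7 1.S1_at by -2.80.

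The 2 untreated PI 416937 arrays at 2 h read 11.21 and 13.40 for LOX10, 10.19 and 13.37 for JAZ1, and 7.96 and 10.51 for AOC2, while CYP74A1 read 10.55 and 10.58 in them.

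Of 3 probe sets of another vegetative storage protein gene, LOC547820, 1 fell by 5.22 ± 1.46 in untreated PI 416937 between 48 and 72 h (limma adjusted p = 0.0157). With Al at 48 h that probe set differed by -4.77 ± 1.46 in PI 416937 and did not pass (limma adjusted p = 0.0588), and the 3 together ran from -4.77 to -0.03.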
